A study of Mus musculus with 10 samples.

Results

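The immediate early genes described here are Egr1, Egr2, Egr3, Nr4a1, Nr4a2, Nr4a3, Ier2, Ier3, Klf4 and Btg2, 10 of the 51789 genes listed in the count data, found by matching their symbols to Ensembl identifiers in GENCODE M21. RNA was sequenced from cardiomyocytes isolated on day 4 after myocardial infarction (MI), with 1 library per mouse, and the labels give no batch or date. The NLC-MI group held 5 non-transgenic littermate control mice, and the TgGRK5-MI group held 5 mice that overexpress G protein-coupled receptor kinase 5 in cardiomyocytes. Both groups underwent MI, so neither a sham-operated heart nor an uninjured cardiomyocyte stands behind these values. Mice operated for MI were 8 to 12 weeks old and of both sexes, and neither the strain and sex of the mouse behind each library nor the promoter that drives the transgene is given in the sources used here.

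Immediate early genes are transcribed within minutes of a stimulus, from factors that are already present in the cell, and their RNAs are short-lived. The EGR proteins are zinc finger transcription factors, and the NR4A proteins are orphan nuclear receptors. Ier2 and Ier3 encode small proteins of the immediate early response, Klf4 encodes a Krüppel-like zinc finger factor, and Btg2 encodes an antiproliferative protein that works with the CCR4-NOT deadenylase. In the heart these genes respond to stretch, adrenergic and other growth stimuli, and injury. They also respond to tissue dissociation, which isolated cardiomyocytes undergo.

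Libraries held between 7968779 and 23381527 counts, and TgGRK5-MI replicate 3, TgGRK5-MI replicate 4 and NLC-MI replicate 3 were the shallowest. All 10 genes passed the filter on low counts, and the lowest value was 26 counts, for Egr3. Values are given in CPM (counts scaled to library size with TMM factors), on which 3 counts amounted to 0.121 to 0.393 CPM across the libraries. Grk5 itself averaged 60.4 ± 9.50 CPM over the NLC-MI libraries and 1222 ± 472 CPM over the TgGRK5-MI libraries (SD, n = 5 each), with no overlap. All 10 cardiomyocyte markers passed the filter, with a summed level of 56504 to 146947 CPM in NLC-MI and to 60991 to 121602 CPM in TgGRK5-MI. RNA of other cells was also measured. The 6 fibroblast markers summed to 3991 to 23974 CPM in NLC-MI and to 4157 to 24595 CPM in TgGRK5-MI. The 6 macrophage and monocyte markers summed to 487 to 1535 CPM and 843 to 1716 CPM, and the 6 endothelial markers to 763 to 1412 CPM and 687 to 1480 CPM. The 6 smooth muscle and pericyte markers summed to 689 to 1607 CPM in NLC-MI and to 1040 to 1809 CPM in TgGRK5-MI, and the 5 neutrophil markers to 9.69 to 24.9 CPM and 12.6 to 30.4 CPM. The 4 erythroid genes summed to at most 50.8 CPM in every library but NLC-MI replicate 3, where they summed to 410 CPM. None of these sums separated the groups.

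The comparison of TgGRK5-MI with NLC-MI asks whether more GRK5 in cardiomyocytes goes with other levels of these genes after MI. None of the 10 genes passed the threshold of an adjusted p of 0.10 (quasi-likelihood test of edgeR, Benjamini-Hochberg adjustment), a level that 0.0788% of the 15232 genes tested passed, and the adjusted p was 1 for each. At an unadjusted p under 0.05, Ier2 was lower in TgGRK5-MI and none was higher, against 2.08% of all genes tested lower and 1.77% higher. The fitted log2 fold change was below 0 for 9 of the 10 genes and above 0 for Klf4, where 49.8% of all genes tested lay below 0. This count ranged from 6 (without NLC-MI replicate 1, or without NLC-MI replicate 3) to 10 over the alternatives. The median log2 fold change was -0.37 over the 10 genes and 0.00 over all genes tested. For every gene the groups overlapped, whereas 1% of all genes tested had groups that did not. None had an exact permutation p under 0.05, which 4.38% of all genes tested had. In RNA from a whole cell preparation, fewer cells that express a gene and less of its RNA per cell cannot be told apart.

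**Figure D1:**
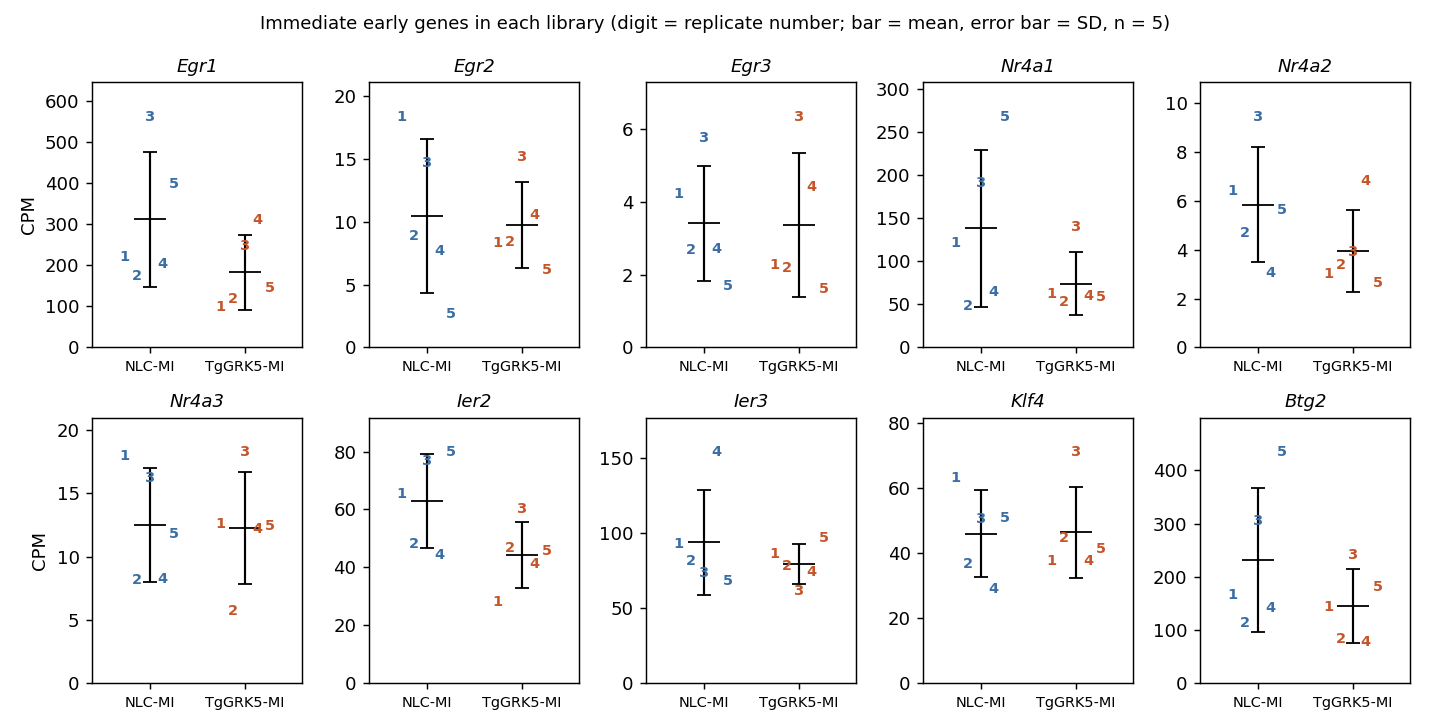
Level of each immediate early gene in CPM (vertical axes, linear from 0) in the NLC-MI (blue) and TgGRK5-MI (orange) groups, where each digit is 1 library at its replicate number, the horizontal bar is the group mean and the error bar the SD (n = 5). The groups overlap in all 10 panels, and replicate 3 of TgGRK5-MI is the highest of its group for 7 genes.

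Of the EGR family, Egr1 was the member with the highest level and the lowest p. Egr1 (ENSMUSG00000038418, GRCm38 chromosome 18 from 34859823 to 34864984, plus strand), the founding factor of the family, was at 221, 174, 561, 203 and 398 CPM in NLC-MI replicates 1 to 5. In TgGRK5-MI replicates 1 to 5 it was at 97.8, 117, 247, 309 and 145 CPM. NLC-MI replicates 3 and 5 lay above every TgGRK5-MI library, and TgGRK5-MI replicates 1, 2 and 5 lay below every NLC-MI library. Egr1 averaged 311 ± 165 CPM over the NLC-MI libraries and 183 ± 91.0 CPM over the TgGRK5-MI libraries (SD, n = 5 each), which gave a fitted value 1.70-fold lower in TgGRK5-MI. The log2 fold change was -0.77 (SE 0.39, 95% interval -1.62 to 0.09, unadjusted edgeR p = 0.0751), and the difference of mean log2 CPM had an exact two-sided permutation p of 0.135. When TgGRK5-MI replicate 4 was left out, the log2 fold change of Egr1 was -1.04 (unadjusted edgeR p = 0.0232, adjusted p = 1.00, exact permutation p = 0.0794). Without NLC-MI replicate 3 it was -0.44 (unadjusted edgeR p = 0.245, exact permutation p = 0.278).

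Egr2 and Egr3 were measured at far lower levels and differed little between the group means. Egr2 (ENSMUSG00000037868, chromosome 10 from 67535475 to 67542188, plus strand), known for its role in myelination, was at 18.3, 8.87, 14.7, 7.65 and 2.68 CPM in NLC-MI and at 8.27, 8.42, 15.1, 10.6 and 6.12 CPM in TgGRK5-MI. All but 1 of the TgGRK5-MI values lay within the range from 6.12 to 10.6 CPM, while the NLC-MI values spread on both sides of it. Its log2 fold change was -0.11 (SE 0.42, 95% interval -1.02 to 0.81, unadjusted edgeR p = 0.801, exact permutation p = 0.865), although the mean of its log2 CPM was 0.09 higher in TgGRK5-MI. Egr3 (ENSMUSG00000033730, chromosome 14 from 70077203 to 70082614, plus strand), a paralog first known from muscle spindles and lymphocytes, was at 4.23, 2.67, 5.76, 2.72 and 1.70 CPM in NLC-MI and at 2.28, 2.18, 6.34, 4.42 and 1.61 CPM in TgGRK5-MI. Replicate 3 held the highest Egr3 value of both groups and replicate 5 the lowest. Its log2 fold change was -0.03 (SE 0.42, 95% interval -0.94 to 0.89, unadjusted edgeR p = 0.950, exact permutation p = 0.817). The intervals of both genes include every log2 fold change from -0.94 to 0.81. Egr4, the remaining paralog, held 0 to 3 counts per library and was not tested.

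The NR4A receptors differed in how far their group means lay apart. Nr4a1 (ENSMUSG00000023034, chromosome 15 from 101254269 to 101274795, plus strand), also called Nur77, was at 121, 48.3, 190, 63.8 and 267 CPM in NLC-MI. In TgGRK5-MI it was at 61.6, 52.3, 140, 59.4 and 58.0 CPM. Every TgGRK5-MI library but replicate 3 thus lay between 52.3 and 61.6 CPM, while the NLC-MI libraries ranged over more than 5-fold and 1 of them lay below every TgGRK5-MI library. Nr4a1 averaged 138 ± 91.3 CPM over the NLC-MI libraries and 74.2 ± 36.8 CPM over the TgGRK5-MI libraries (SD, n = 5 each). The log2 fold change was -0.90, the lowest of the 10 genes (SE 0.45, 95% interval -1.88 to 0.08, unadjusted edgeR p = 0.0691), with an exact permutation p of 0.238 for the difference of mean log2 CPM.

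Nr4a2 (ENSMUSG00000026826, chromosome 2 from 57106830 to 57124003, minus strand), also called Nurr1 and known from dopaminergic neurons, was at 6.39, 4.70, 9.42, 3.05 and 5.63 CPM in NLC-MI and at 3.00, 3.36, 3.91, 6.79 and 2.63 CPM in TgGRK5-MI. TgGRK5-MI replicate 4 was the only library of its group above 3.91 CPM. For Nr4a2 the log2 fold change was -0.57 (SE 0.33, 95% interval -1.29 to 0.15, unadjusted edgeR p = 0.111, exact permutation p = 0.159). Nr4a3 (ENSMUSG00000028341, chromosome 4 from 48045153 to 48086447, plus strand), also called Nor1, was at 17.97, 8.14, 16.2, 8.26 and 11.8 CPM in NLC-MI and at 12.6, 5.72, 18.3, 12.2 and 12.5 CPM in TgGRK5-MI. Its lowest and its highest value were both in TgGRK5-MI. Nr4a3 had a log2 fold change of -0.03 (SE 0.31, 95% interval -0.71 to 0.65, unadjusted edgeR p = 0.931, exact permutation p = 1).

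Ier2 was the gene of the 10 with an unadjusted p under 0.05. Ier2 (ENSMUSG00000053560, chromosome 8 from 84661331 to 84662852, minus strand), a gene of 1 exon for a small nuclear protein, was at 65.4, 48.1, 76.7, 44.2 and 79.8 CPM in NLC-MI. In TgGRK5-MI it was at 28.1, 46.5, 60.1, 41.0 and 45.6 CPM. NLC-MI replicates 1, 3 and 5 lay above every TgGRK5-MI library, and TgGRK5-MI replicates 1 and 4 lay below every NLC-MI library. Ier2 averaged 62.8 ± 16.2 CPM over the NLC-MI libraries and 44.3 ± 11.5 CPM over the TgGRK5-MI libraries (SD, n = 5 each), and the fitted value was 1.42-fold lower in TgGRK5-MI. This gave a log2 fold change of -0.50 (SE 0.22, 95% interval -0.99 to -0.02, unadjusted edgeR p = 0.0441, adjusted p = 1), and the exact permutation p for the difference of mean log2 CPM was 0.0635. Without NLC-MI replicate 1, 3 or 5, or TgGRK5-MI replicate 1, 2, 4 or 5, the unadjusted edgeR p of Ier2 lay above 0.05, from 0.0597 to 0.102.

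Ier3 (ENSMUSG00000003541, chromosome 17 from 35821684 to 35822923, plus strand), which encodes an inhibitor of apoptosis and target of NF-kappaB, was at 92.8, 81.0, 73.0, 154 and 68.2 CPM in NLC-MI and at 86.1, 77.9, 61.4, 74.1 and 96.5 CPM in TgGRK5-MI. Apart from NLC-MI replicate 4, every NLC-MI value lay within the TgGRK5-MI range. The log2 fold change of Ier3 was -0.24 (SE 0.22, 95% interval -0.73 to 0.24, unadjusted edgeR p = 0.297, exact permutation p = 0.516), and it was 0.0084 without NLC-MI replicate 4.

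Klf4 (ENSMUSG00000003032, chromosome 4 from 55527143 to 55532466, minus strand), a pluripotency factor that also acts in endothelium and smooth muscle, was at 63.0, 36.6, 50.6, 29.1 and 50.9 CPM in NLC-MI and at 37.5, 44.5, 71.1, 37.7 and 41.3 CPM in TgGRK5-MI. Klf4 had a log2 fold change of 0.01 (SE 0.24, 95% interval -0.51 to 0.53, unadjusted edgeR p = 0.960, exact permutation p = 0.929), and it turned to -0.20 without TgGRK5-MI replicate 3. Btg2 (ENSMUSG00000020423, chromosome 1 from 134075170 to 134079120, minus strand) was at 165, 112, 304, 141 and 434 CPM in NLC-MI and at 142, 83.2, 241, 76.8 and 181 CPM in TgGRK5-MI. NLC-MI replicates 3 and 5 lay above every TgGRK5-MI library, and TgGRK5-MI replicates 2 and 4 lay below every NLC-MI library. For Btg2 the log2 fold change was -0.67 (SE 0.41, 95% interval -1.57 to 0.22, unadjusted edgeR p = 0.128, exact permutation p = 0.254).

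**Figure D2:**
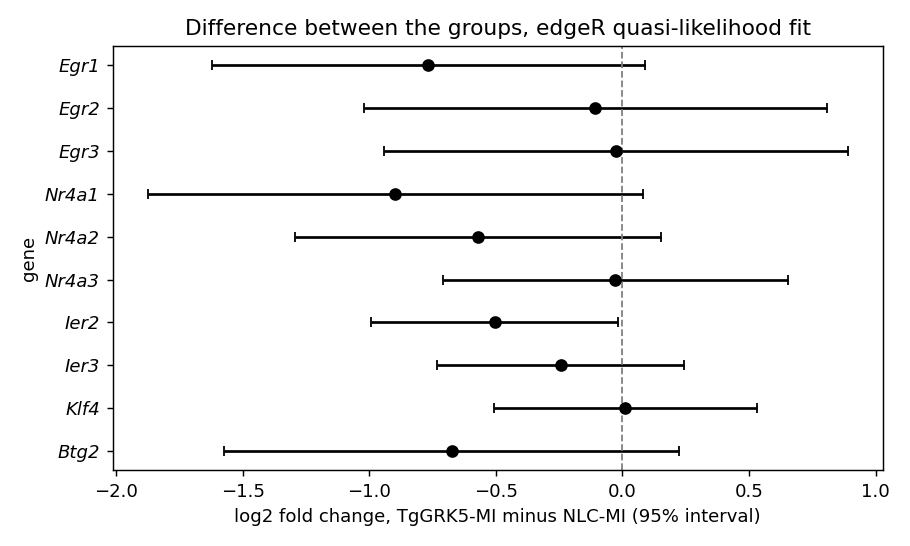
Fitted log2 fold change of each gene (horizontal axis, TgGRK5-MI minus NLC-MI) with its 95% interval from edgeR's quasi-likelihood fit over 5 libraries a group, where the dashed line marks no difference. The interval of Ier2 ends at -0.02, and those of the other 9 genes include 0.

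The genes commonly induced beside these were read from the same fit. Of the 8 AP-1 and ATF3 genes, 3 were lower in TgGRK5-MI at an unadjusted p under 0.05, a threshold that 3.85% of all genes tested passed in either direction, and none was higher, with a median log2 fold change of -0.66. Fos, the AP-1 subunit, was at 86.0 to 322 CPM in NLC-MI and at 60.3 to 84.8 CPM in TgGRK5-MI, with no overlap (log2 fold change -1.34, SE 0.33, unadjusted edgeR p = 0.00177, adjusted p = 0.501, exact permutation p = 0.00794, the smallest that 5 against 5 libraries allow). Its partners Jun and Junb had log2 fold changes of -0.96 (SE 0.38, unadjusted edgeR p = 0.0282, exact permutation p = 0.0952) and -0.75 (SE 0.21, unadjusted edgeR p = 0.00436, exact permutation p = 0.0159), each with overlapping groups. Of 34 other immediate early genes, 2 were lower and none higher at that threshold, with a median log2 fold change of -0.14. They were Arc (log2 fold change -1.18, unadjusted edgeR p = 0.0355, exact permutation p = 0.0952), a gene best known from neurons, and Socs3 (log2 fold change -0.59, unadjusted edgeR p = 0.0287, exact permutation p = 0.0635), an inhibitor of cytokine signalling. Arc was at 22.0 CPM in NLC-MI replicate 3 and at 4.25 to 4.78 CPM in the rest of NLC-MI. In TgGRK5-MI it was at 2.14 to 5.21 CPM, so much of its difference rested on that library. None of the genes in these lists had an adjusted p under 0.10.

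Upstream of immediate early genes stand the serum response factor SRF with its ternary complex partners, the CREB family and the ERK kinases. Of 25 such genes, 1 was higher in TgGRK5-MI at an unadjusted p under 0.05 and none was lower, with a median log2 fold change of -0.06. The higher gene was Mapk3, which encodes ERK1, with a mean of 71.0 ± 8.04 CPM over NLC-MI and of 90.2 ± 11.5 CPM over TgGRK5-MI (SD, n = 5 each, log2 fold change 0.35, unadjusted edgeR p = 0.0269, adjusted p = 1, exact permutation p = 0.0317). Srf itself had a log2 fold change of -0.20 (SE 0.14, unadjusted edgeR p = 0.176, exact permutation p = 0.0952). Among 18 paralogs, corepressors and partners of the 10 genes that passed the filter, none passed that threshold in either direction, with a median log2 fold change of -0.13. Nab1 and Nab2, corepressors that bind EGR proteins, had log2 fold changes of -0.01 and -0.23. Of the cell type markers, Ryr2, the calcium release channel of cardiomyocytes, was the 1 gene past the threshold (log2 fold change -0.93, SE 0.30, unadjusted edgeR p = 0.00902, adjusted p = 0.968, exact permutation p = 0.0476). Over all genes tested, 3.85% passed it in either direction. The log2 fold change was below 0 for 6 of the 10 cardiomyocyte markers and above 0 for 4, with a median of -0.09.

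Levels of different genes were compared per kb of exon, in the same library. Ier3 had the highest median over the 10 libraries with 70.3 CPM per kb, followed by Btg2 with 56.1, Egr1 with 47.3, Ier2 with 31.1, Nr4a1 with 17.9 and Klf4 with 14.1 CPM per kb. Below Klf4, at a median log2 gap of 2.27 within libraries, came Egr2 with 2.54, Nr4a3 with 2.06, Nr4a2 with 1.06 and Egr3 with 0.612 CPM per kb. On this scale Ier3 stood at percentile 95.5 of all genes tested and Egr3 at percentile 17. The EGR and NR4A families each held 1 abundant member, Egr1 at percentile 94 and Nr4a1 at percentile 89.4, and a pair of members between percentiles 17 and 41.7. Of the 9 pairs of neighbours in this order, 5 differed in an exact two-sided sign-flip permutation test over the 10 libraries, adjusted over the 9 pairs. Nr4a1 was above Klf4, Klf4 above Egr2, and Nr4a3 above Nr4a2 in 10 of 10 libraries (adjusted permutation p = 0.00586 each), and Egr1 was above Ier2 and Nr4a2 above Egr3 in 9 of 10 (adjusted permutation p = 0.0141 each). Ier3 and Btg2 (0.314), Btg2 and Egr1 (0.235), Ier2 and Nr4a1 (0.0645) and Egr2 and Nr4a3 (0.123) did not differ beyond their spread by the same adjusted permutation p. The order of the medians was the same in 12 of 12 alternatives, which were other scalings and each library left out. Another scaling multiplies all genes of a library by the same factor, so it could hardly change this order. The exon length used for each gene was not varied.

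**Figure D3:**
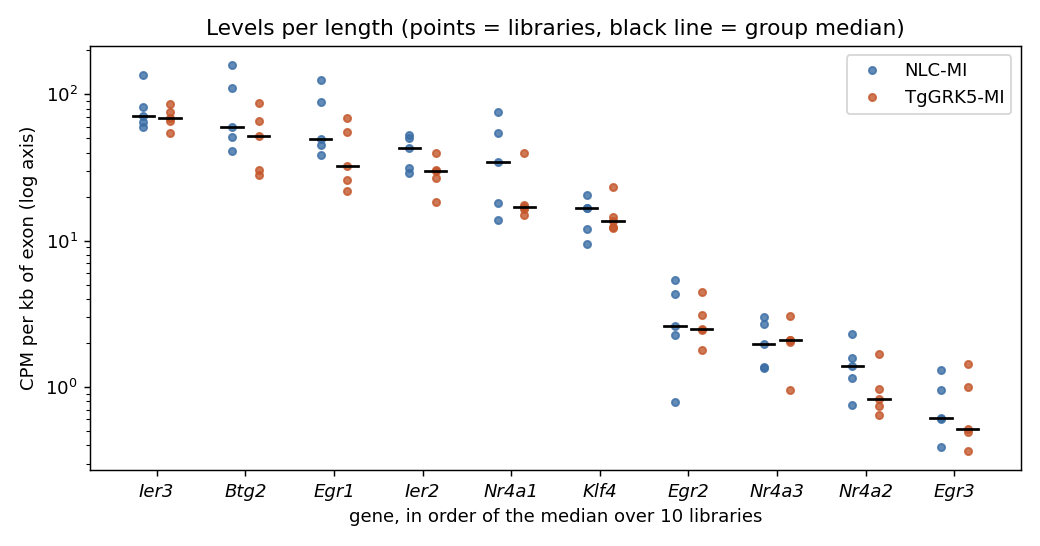
Level of each gene in CPM per kb of exon (vertical axis, log scale) in each NLC-MI (blue) and TgGRK5-MI (orange) library, in order of the median over the 10 libraries, with the group median as a black line. The 6 genes on the left have medians of 14.1 CPM per kb or more and the 4 on the right of 2.54 CPM per kb or less.

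The genes varied among mice of the same group. The SD of log2 CPM within groups had a median of 0.64 over the 10 genes, against 0.39 over all genes tested. It was largest for Nr4a1 (0.84, percentile 91.9 of all genes tested), Egr2 (0.82, percentile 91.4), Btg2 (0.76, percentile 89.2), Egr3 (0.72, percentile 87) and Egr1 (0.71, percentile 86.6). Nr4a3 (percentile 75.4) and Nr4a2 (percentile 73.6) lay lower, and Klf4 (percentile 53.9), Ier2 (percentile 50.3) and Ier3 (percentile 46.8) lay near the middle of all genes. The highest library was 6.83 times the lowest for Egr2 and 2.44 times for Klf4, the widest and the narrowest range of the 10. The SD was larger in NLC-MI than in TgGRK5-MI for 7 of the 10 genes, as it was for 62.9% of all genes tested. These values are descriptions, and no test was made of them.

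The libraries that were high in one gene were often high in others. NLC-MI replicate 3 was among the highest 3 libraries for 8 of the 10 genes, NLC-MI replicate 1 and TgGRK5-MI replicate 3 for 6 each, and NLC-MI replicate 5 for 5. NLC-MI replicate 2, TgGRK5-MI replicate 1 and TgGRK5-MI replicate 2 were among the highest 3 for none. After the group means were removed, the pairwise Pearson r of log2 CPM over the 10 libraries had a median of 0.44 over 45 pairs of genes, and 34 pairs were above 0. The points of each pair share a library, its depth and its mix of cells, and the r values are given as a description.

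Within this, the genes fell into different patterns. Nr4a1 and Btg2 had the highest r (0.87), and both were highest in NLC-MI replicate 5, then in NLC-MI replicate 3 and then in TgGRK5-MI replicate 3. Egr2 and Egr3 (r = 0.84) instead had NLC-MI replicate 5 among their lowest 2 libraries, where Egr2 was at 2.68 CPM, and TgGRK5-MI replicate 3 among their highest 2. Ier2 and Klf4 (r = 0.81), Nr4a1 and Ier2 (r = 0.79), Egr1 and Nr4a2 (r = 0.78) and Nr4a1 and Klf4 (r = 0.75) were the other pairs above 0.7. Egr1 and Egr2, of the same family, had an r of 0.10, and Nr4a1 and Nr4a3 had an r of 0.65. Ier3 went the other way, with an r below 0 with each of the other 9 genes, from -0.05 with Egr2 to -0.68 with Nr4a2. It was highest in NLC-MI replicate 4, where Klf4 was lowest of all 10 libraries, and lowest in TgGRK5-MI replicate 3, where Egr3, Nr4a3 and Klf4 were highest.

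**Figure D4:**
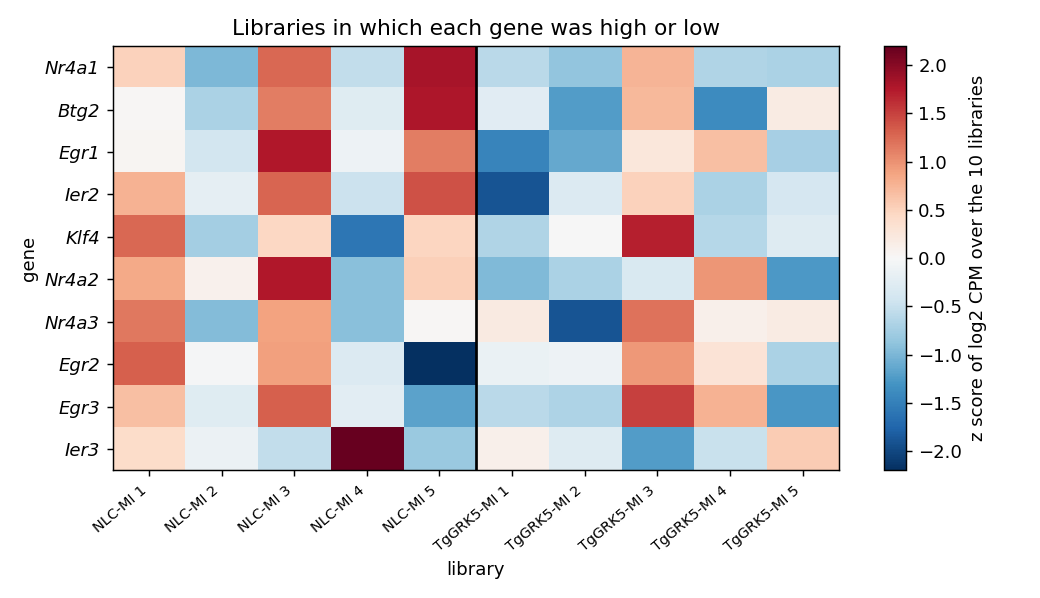
Level of each gene (rows) in each library (columns) as the z score of log2 CPM over the 10 libraries, red above and blue below the gene's mean, with a black line between NLC-MI and TgGRK5-MI. NLC-MI replicate 3 is above the mean for every gene but Ier3, NLC-MI replicate 5 is high for Nr4a1, Btg2, Ier2 and Egr1 and low for Egr2 and Egr3, and Ier3 runs opposite to most other rows.

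Other measured features moved with these libraries. NLC-MI replicate 5, NLC-MI replicate 3 and TgGRK5-MI replicate 3 had the highest summed levels of the 10 genes (1320, 1302 and 864 CPM, against 441 to 775 CPM in the other 7 libraries). The same 3 libraries had the lowest fibroblast marker sums, at 3991, 5772 and 4157 CPM, against 7423 CPM or more in the other 7. The macrophage and monocyte marker sum was lowest in NLC-MI replicate 3 (487 CPM) and NLC-MI replicate 5 (522 CPM). In TgGRK5-MI replicate 3 it was 843 CPM, above NLC-MI replicate 4 at 664 CPM. A mean z score of log2 CPM, which weighs the 10 genes alike, ordered the libraries differently. By it NLC-MI replicate 1 (0.70) stood above TgGRK5-MI replicate 3 (0.60) and NLC-MI replicate 5 (0.30), and below NLC-MI replicate 3 (1.02). The fibroblast marker sum of NLC-MI replicate 1 was 23400 CPM. The cardiomyocyte marker sum was highest in NLC-MI replicate 5 (146947 CPM) and TgGRK5-MI replicate 3 (121602 CPM), while NLC-MI replicate 3 was at 87603 CPM, below TgGRK5-MI replicate 1 at 92152 CPM. Hspa1a, an inducible heat shock chaperone, was at 535 CPM in NLC-MI replicate 3 and 257 CPM in TgGRK5-MI replicate 3, against 11.7 to 57.7 CPM in the other 8 libraries. Its near-identical neighbour Hspa1b, whose reads cannot be told apart with certainty, was at 405 and 225 CPM against 12.7 to 72.4 CPM. Of the 8 heat shock genes, Hspb1 was lower in TgGRK5-MI at an unadjusted p under 0.05 (log2 fold change -0.50, unadjusted edgeR p = 0.0334, exact permutation p = 0.0476) and none was higher, and their summed level ranged from 3233 to 5382 CPM in NLC-MI and from 3191 to 5971 CPM in TgGRK5-MI. The part of fibroblast RNA, macrophage RNA, cardiomyocyte content, heat shock and depth in the levels of the 10 genes was not tested.

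The genes outside the 10 whose pattern was most like theirs were ranked by the Pearson r of log2 CPM with the mean z score of the 10 genes over the 10 libraries, among 15222 genes. Zfp36, which encodes the mRNA decay factor tristetraprolin, came first (r = 0.911, Spearman rho = 0.855). It was at 164, 98.7, 277, 107 and 141 CPM in NLC-MI and at 81.4, 100.01, 217, 168 and 80.3 CPM in TgGRK5-MI, and its log2 fold change was -0.28 (SE 0.34, unadjusted edgeR p = 0.427, exact permutation p = 0.468). The next were Gnmt (r = 0.903), an enzyme of methionine metabolism that was below 2 CPM in every library, Apold1 (r = 0.887), an early response gene of endothelium, E330034L11Rik (r = 0.885) and Rhob (r = 0.885), a small GTPase. Zfp36 and Rhob are also in the list of other immediate early genes, and Fosb was at rank 12, Jund at rank 15, Jun at rank 18, Dnajb1 at rank 21 and Hspa1a at rank 31. Further genes of the same lists lay far lower, among them Fos at rank 231, Atf3 at rank 538 and Junb at rank 3115. Hspa8 was at rank 4347, Socs3 at rank 6231 and Gadd45b, with an r of -0.28, at rank 10451. These ranks describe 10 libraries that share depth and cell mix. The highest r values were picked from 15222 genes, which alone makes them large, and they were not tested.

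Promoter sequence was available for 7 of the 10 genes, from RefSeq on GRCm38.p6, and the 250 bases before each annotated start were searched on both strands for 5 motifs. TGACG, the core of the cAMP response element that CREB binds, was present in 6 of 7 genes (Egr2, Nr4a1, Nr4a2, Nr4a3, Klf4 and Btg2) and in 19.8% of the 27025 genes with a promoter sequence (17.8% of 32851 promoters). Egr2 had 5 annotated starts to search and the other 6 genes had 1 each. GCGNGGGCG, the site that EGR proteins bind, was present in 4 of 7 (Nr4a1, Nr4a2, Klf4 and Btg2) and in 5.33% of genes. The CArG box that SRF binds was found in Egr2 alone (1.62% of genes) and the AP-1 site TGANTCA in none (7.82%). The letters TATAAA of the TATA box core were found in Nr4a2 alone (14.3%). There they lay on the strand opposite to the gene, 164 to 159 bases before the start. Ier3 held none of the 5 motifs in its window. A match is a description of the letters and not a bound site, and matches on opposite strands can overlap. The stretches that hold the TGACG matches are shown because that motif is what most of these genes shared. Capitals mark TGACG, or CGTCA where it lies on the other strand, and in Egr2 also the CArG box of this stretch. Another annotated start of Egr2 had a different CArG box, CCTTTTTTGG, in a stretch that is not shown. Each stretch is written 5′ to 3′ on the strand of its gene, at chr10:67537743-67537833 (plus) for Egr2, chr15:101266598-101266825 (plus) for Nr4a1, chr2:57124095-57124218 (minus) for Nr4a2, chr4:48045059-48045177 (plus) for Nr4a3, chr4:55532688-55532722 (minus) for Klf4 and chr1:134079299-134079336 (minus) for Btg2. In GENCODE M21 the Egr2 and Nr4a1 stretches lie inside the span of the gene, the end of the Nr4a3 stretch reaches into it, and the other 3 lie upstream of the gene.
Egr2: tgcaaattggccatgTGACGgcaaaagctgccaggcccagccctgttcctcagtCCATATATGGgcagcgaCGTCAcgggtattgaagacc
Nr4a1: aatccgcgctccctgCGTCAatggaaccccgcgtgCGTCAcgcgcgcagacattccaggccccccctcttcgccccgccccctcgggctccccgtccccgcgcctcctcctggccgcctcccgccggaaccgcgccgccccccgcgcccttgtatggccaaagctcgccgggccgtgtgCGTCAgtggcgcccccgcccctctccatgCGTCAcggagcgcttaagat
Nr4a2: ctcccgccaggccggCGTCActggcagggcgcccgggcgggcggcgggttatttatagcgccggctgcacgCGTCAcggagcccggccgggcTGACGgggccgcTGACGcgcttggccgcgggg
Nr4a3: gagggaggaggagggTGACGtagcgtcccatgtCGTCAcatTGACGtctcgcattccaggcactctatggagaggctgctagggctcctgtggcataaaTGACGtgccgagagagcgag
Klf4: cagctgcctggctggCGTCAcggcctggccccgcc
Btg2: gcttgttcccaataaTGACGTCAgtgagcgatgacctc

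Nr4a1, Nr4a2 and Nr4a3 each held 4 TGACG matches, Klf4 held 1, and in Btg2 the matches on both strands overlapped to form the full palindrome. Nr4a1, Nr4a2, Klf4 and Btg2 held both TGACG and the EGR site. The r over libraries between pairs of these genes ranged from 0.09 (Nr4a2 and Btg2) to 0.87 (Nr4a1 and Btg2). Whether shared motifs go with shared patterns was not tested. Egr2 and Egr3 could not be compared, since the Egr3 promoter was not among the sequences used here, nor were those of Egr1 and Ier2.

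The 3′ untranslated regions were searched for AUUUA, the pentamer of AU-rich elements through which proteins such as tristetraprolin shorten the life of an mRNA. All 10 genes had a region of at least 100 bases in GENCODE M21, and 9 of them held the pentamer at least once, against 72.4% of 13088 genes tested with such a region. Its density had a median of 2.27 per kb over the 10 genes and 1.37 per kb over all of them, and 8 of the 10 genes lay above the latter. Ier3 had the highest density, with 5 copies in 613 bases (8.16 per kb, percentile 98.9), followed by Nr4a1 with 3 copies in 543 bases (5.53 per kb, percentile 95.6). Ier2 held none in 755 bases, and Klf4 held 1 in 982 bases. Ier3, with the highest density, had the highest median level per kb of exon and a 2.51-fold range over libraries, while Nr4a1, next in density, had a 5.53-fold range.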

How the data were processed

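Cardiomyocyte RNA from day 4 after MI was sequenced in 5 NLC-MI and 5 TgGRK5-MI mice, grouped by their labels. Total RNA was extracted with Trizol, and libraries were made with the Illumina TruSeq RNA Library Prep Kit v2. The authors deposited whole-number counts per Ensembl gene, without normalization. The submitters' processing notes name Bowtie2, RSEM 1.2.31, DESeq2 and mm10, so these counts may be rounded RSEM estimates. The strand setting and annotation version are not given in the sources used here, so reads of an antisense transcript could be included.

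From these counts, CPM, log2 CPM (prior count 2) and the group test were computed in R 4.3.3 with edgeR 4.0.16 (TMM, filterByExpr, quasi-likelihood F test with legacy=FALSE, Benjamini-Hochberg over the 15232 genes tested). The test was first tried on simulated data. The difference of mean log2 CPM was put to an exact permutation test, two-sided, over 252 placements of the libraries, whose smallest p is 0.00794. Levels per kb use the union exon length of GENCODE M21, which held 51596 of the identifiers. No other gene's transcripts held a long, near-identical stretch of those of the 10 genes, and no other gene overlapped them. Shorter or less alike stretches were not counted. SE is the log2 fold change over the square root of F. The threshold of an adjusted p of 0.10 follows the false discovery rate threshold that the paper gives with its RNA sequencing results.

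The 10 genes and the gene lists were chosen with earlier results of these data known, so no p is given over a list. The genes named outside the 10 are list members with an unadjusted p under 0.05, the fixed reference genes Fos, Jun, Srf, Nab1, Nab2 and Zfp36, Grk5, and the 5 genes most like the mean of the 10. Hspa1a, Hspa1b, Egr4 and the list genes given by rank were named after their values were seen. Alternatives were RLE factors, library size alone, DESeq2 1.42.0, limma-voom (limma 3.58.1) with quality weights, a robust fit, 2 other filters, a replicate block, 1 surrogate variable from sva 3.50.0, a prior count of 0.5, group means kept in the correlations, and each library left out. The 7 libraries above 15000000 counts were added as an alternative after seeing the data.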

Additional observations from a re-analysis of the deposited data

Results flagged for a closer look

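In 3 of 20 tests, 1 for each gene in each group, a library stood apart from the other 4 of its group by Dixon's 95% criterion, which chance meets in about 1 of 20. Nr4a1 in TgGRK5-MI replicate 3 was at 139.7 CPM, against 52.3 to 61.6 CPM in the rest of its group. Klf4 in the same library was at 71.1 CPM, against 37.5 to 44.5 CPM. Ier3 in NLC-MI replicate 4 was at 153.9 CPM, against 68.2 to 92.8 CPM. TgGRK5-MI replicate 3 was also the library of its group with the highest Hspa1a and Hspa1b and the lowest fibroblast marker sum.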

How the results depend on the processing

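None of the 10 genes had an adjusted p under 0.10, and none was higher at an unadjusted p under 0.05, in any alternative. Genes of the 10 lower at an unadjusted p under 0.05 numbered 1 in the fit as reported, 2 with library size alone (Nr4a1 and Ier2), 2 without a filter (Nr4a1 and Ier2), 2 in the libraries above 15000000 counts (Egr1 and Nr4a2), 3 with DESeq2 (Egr1, Nr4a1 and Ier2), 4 with 1 surrogate variable (Egr1, Nr4a1, Nr4a2 and Ier2), and 0 to 3 with each library left out. With limma-voom the count was 1, but the gene was Nr4a2 and not Ier2. Over all genes tested, 2.08% were lower and 1.77% higher at this threshold in the fit as reported. These shares were not computed for the alternatives, so the counts there have no background beside them. The surrogate variable gave Egr1 its lowest p (0.000516, adjusted p = 0.192). The related genes are the AP-1, other immediate early, upstream, relative and heat shock lists, with 8, 34, 25, 18 and 8 genes tested. At the same threshold 1 of them was higher as reported, 0 with library size alone, 0 in the libraries above 15000000 counts and 0 to 1 with each library left out. Related genes that were lower numbered 6 as reported, 3 to 9 with each library left out and 6 to 11 in the other alternatives. Over all genes tested, those higher and lower at an adjusted p under 0.10 numbered 8 and 4 as reported, 42 and 27 with DESeq2, 41 and 9 with limma-voom, and 2 to 13 and 1 to 9 in the other alternatives. The cause of these changes was not tested.

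The libraries share replicate numbers but not mice. Same-numbered libraries correlated at 0.0717, 0.662, 0.381, -0.341 and 0.0848 in their deviations from the group means. The mean was 0.172 for libraries of the same number and -0.0274 for libraries of different numbers. These few values cannot tell whether libraries of the same number were handled together. With the replicate number as a block, Egr1, Ier2 and Btg2 (3 genes) had an unadjusted p under 0.05, 0 related genes were higher and 11 were lower, and the log2 fold change of Egr2 turned to 0.077.

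Signs close to 0 turned: Nr4a3 was at 0.11 with limma-voom, and Klf4 at -0.0066 with library size alone, -0.017 with 1 surrogate variable and -0.13 in the libraries above 15000000 counts. With each library left out, the log2 fold change ranged from -0.36 to 0.20 for Egr2, -0.40 to 0.20 for Egr3, -0.23 to 0.16 for Nr4a3, -0.35 to 0.0084 for Ier3 and -0.20 to 0.14 for Klf4. The difference of mean log2 CPM ranged from -0.33 to 0.36, -0.36 to 0.13, -0.22 to 0.21, -0.30 to 0.0017 and -0.15 to 0.15 for the same genes. Egr1, Nr4a1, Nr4a2, Ier2 and Btg2 stayed below 0 in every alternative, but their size moved. With each library left out, the log2 fold change ranged from -1.04 to -0.44 for Egr1, -1.27 to -0.52 for Nr4a1, -0.84 to -0.35 for Nr4a2, -0.65 to -0.39 for Ier2 and -0.95 to -0.32 for Btg2, weakest without NLC-MI replicate 3 (Egr1 and Nr4a2), NLC-MI replicate 5 (Nr4a1 and Btg2) or TgGRK5-MI replicate 1 (Ier2). With limma-voom it was -0.24 for Nr4a1 and -0.10 for Btg2. The exact permutation p was 0.0476 for Nr4a2 without TgGRK5-MI replicate 4 and 0.0397 for Ier2 without NLC-MI replicate 4. The median log2 fold change of the 10 genes was -0.49 to -0.34, their median percentile by SD 79.6 to 82.4, and their median r 0.346 to 0.570 with each library left out. Of the 10 genes, Egr3 had the lowest counts, from 26 to 96 per library.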
